A study of Mus musculus with 18 samples.

Results

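The 38 genes described here are immediate early and activity-induced genes, which neurons transcribe soon after they fire. They were chosen by name, by a rule that reads no measured value but was set with earlier results of these data known, and all 38 were found in the promoter table of an ATAC-seq study of mouse brain. ATAC-seq cuts open chromatin with a transposase, so the reads in a promoter window measure how accessible that promoter was, not how much RNA the gene made. The table counts reads within 1 kb on either side of each transcription start (build mm9), and the 38 genes fill 41 of its 26065 distinct windows. Homer1, Nr4a2 and Nr4a3 have 2 windows each, and the window with the highest mean count stands for the gene. The windows of Egr3 (2350 bases), Maff (3781 bases) and Per1 (3202 bases) are wider than the usual 2000 bases. The Ptgs2 window shares reads with Ptgs2os and the Ier3 window with Flot1, which the counts cannot tell apart.

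The study has 18 libraries in 8 groups, each from 50000 sorted nuclei of C57BL/6J mice aged 2 to 3 months. In the first set, nuclei of somatostatin-expressing (SOM+) inhibitory neurons were sorted on nuclear GFP from SOM H2B-GFP mice with a WT genotype label. They came from the central amygdala (CeA) or the cortex of fear-conditioned mice and of control mice, with 2 libraries for each region and treatment, 1 labelled male and 1 labelled female. In the second set, all nuclei were sorted on the DNA dye NucBlue and are called bulk. They came from the CeA or the cortex of mice lacking Erbb4, a neuregulin receptor, in SOM+ cells (KO, 3 libraries for each region) and of WT mice (2 libraries for each region), and none of these mice was fear-conditioned. All KO libraries are labelled male, and of the 2 WT libraries of each region 1 is labelled female and 1 male. The genotype label of the WT libraries also names the knockout, and their WT status was read from the titles. The labels do not give the Cre allele, the training protocol, the time between conditioning and collection, or the number of animals behind a library. They speak of technical replicates of sorted nuclei, so the spread between libraries on which the p-values below rest may be technical. The test used, edgeR, shares this spread over windows. For SOM+ libraries alone it was pooled so fully that a p-value does not measure the spread at its own promoter.

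Most of the proteins in this group act in a short relay. Calcium entry and kinase signalling in an active neuron reach transcription factors already bound at these promoters, chiefly CREB at cAMP response elements, serum response factor at CArG boxes, and MEF2. The rapid wave that follows includes transcription factors (the Fos, Jun, Egr and Nr4a families, Npas4, Atf3, Maff, Klf4 and Klf6), brakes on signalling (Dusp phosphatases, Sik1, Trib1, Plk2), and proteins that act at synapses or outside the cell (Arc, Homer1, Nptx2, Inhba, Ptgs2). Fear conditioning, in which an animal learns that a cue predicts an aversive event, is a standard setting in which such genes are read as marks of recently active neurons.

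Sequences from 250 bases before to 50 bases after each start were matched by symbol in the RefSeq promoter table (GRCm38.p6), which held 37 entries for 29 of the 38 genes. Arc, Egr1, Dusp4, Sik1, Nptx2, Ier2, Egr3, Fosl1 and Trib1 had none. The full cAMP response element TGACGTCA, searched on both strands, was present in 10.8% of these entries, against 1.79% of all 32851 entries in the table. Its shorter core TGACG, which every full element contains, was in 62.2% of the entries, against 20.8% of all. The CArG box was in 13.5%, against 1.63%, with 5 entries from only 2 genes, and the MEF2 motif in 8.11%, against 0.557%. The AP-1 motif TGACTCA was in 0 of the 37 entries, against 5.20% of all. The entries were also rich in CpG, with a median of 21 CpG dinucleotides, against 7 over all entries, and a CpG lies within both cAMP motifs. The stretches below end at the base before the start and run 5′ to 3′ on the gene's strand, with 1 motif type in capitals in most of them. They are shown as examples of each motif in genes called higher (Fos, Npas4, Dusp1, Maff) or lower (Plk2, Dusp5, Egr2, Jun) in SOM+ than in bulk nuclei of the cortex, and other genes had larger differences. Fos has the short core and a TATAAA in capitals, Npas4 the short core on each strand, Dusp1, Maff and Plk2 the full element, Dusp5 and Egr2 the CArG box, and Jun the MEF2 motif.
Fos (chr12:85473790-85473889, plus strand): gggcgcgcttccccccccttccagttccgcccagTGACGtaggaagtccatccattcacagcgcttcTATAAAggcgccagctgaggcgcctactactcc
Npas4 (chr19:4989972-4990161, minus strand): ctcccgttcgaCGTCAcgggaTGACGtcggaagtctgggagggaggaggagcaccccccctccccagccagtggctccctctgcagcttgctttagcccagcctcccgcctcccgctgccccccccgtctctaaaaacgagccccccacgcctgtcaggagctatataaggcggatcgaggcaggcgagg
Dusp1 (chr17:26508473-26508622, minus strand): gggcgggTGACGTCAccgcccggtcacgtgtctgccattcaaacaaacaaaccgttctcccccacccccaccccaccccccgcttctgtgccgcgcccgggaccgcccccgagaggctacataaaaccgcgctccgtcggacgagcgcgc
Maff (chr15:79347420-79347519, plus strand): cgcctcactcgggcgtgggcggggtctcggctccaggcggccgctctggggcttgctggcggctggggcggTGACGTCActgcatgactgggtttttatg
Plk2 (chr13:110394944-110395043, plus strand): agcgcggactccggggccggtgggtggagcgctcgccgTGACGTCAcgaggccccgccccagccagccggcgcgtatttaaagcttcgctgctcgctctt
Dusp5 (chr19:53529045-53529144, plus strand): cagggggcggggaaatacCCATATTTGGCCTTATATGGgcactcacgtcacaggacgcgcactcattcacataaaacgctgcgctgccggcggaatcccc
Egr2 (chr10:67537769-67537868, plus strand): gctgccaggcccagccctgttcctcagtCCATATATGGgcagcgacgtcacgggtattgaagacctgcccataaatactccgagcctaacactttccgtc
Jun (chr4:95052223-95052322, minus strand): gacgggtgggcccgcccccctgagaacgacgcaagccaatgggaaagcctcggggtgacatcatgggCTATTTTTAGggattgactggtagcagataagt

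Library quality, depth and cell content differed between the sets, and these values stand beside every comparison between them. Reads in promoter windows ran between 2648959 and 14668694 per library. Signal over background was read as the ratio of 2 medians, with 76 promoters of ribosomal proteins on top and 1117 of olfactory receptors below. It was 18.3 to 35.7 in CeA SOM+ libraries and 53.6 to 73.6 in cortex SOM+ libraries. It was 10.7 to 19.3 in CeA bulk libraries and 9.83 to 14.6 in cortex bulk libraries. Levels below are CPM, reads per 1000000 promoter reads after TMM scaling over the 18 libraries. Differences are log2 fold changes, each given ± its standard error from the fit. The summed promoter signal of 8 glutamatergic markers was 94.4 to 122 CPM in cortex SOM+ control libraries, against 304 to 386 CPM in cortex bulk WT libraries. It was 71.5 to 76.9 CPM in CeA SOM+ control libraries, against 110.3 to 128 CPM in CeA bulk WT libraries. For 8 somatostatin interneuron markers the sum was 319 to 355 CPM in cortex SOM+ control libraries, against 178 to 207 CPM in cortex bulk WT. In the CeA, however, it was lower in SOM+ control libraries (111 to 132 CPM) than in bulk WT libraries (171 to 173 CPM). The promoter of Sst itself averaged 19.1 CPM in CeA SOM+ control and 20.8 CPM in CeA bulk WT libraries, and 17.3 CPM in cortex SOM+ control and 15.7 CPM in cortex bulk WT libraries, so it hardly differed in either region. The markers Cort and Lhx6 averaged 94.9 and 97.6 CPM in cortex SOM+ control libraries, against 9.85 and 17.6 CPM in cortex bulk WT. In the CeA they averaged 14.1 and 23.2 CPM in SOM+ control libraries, against 14.9 and 23.7 CPM in bulk WT. Summed GABAergic markers were 547 to 657 CPM in all CeA SOM+ libraries, against 402 to 592 CPM in all CeA bulk libraries. No neuronal, glial or vascular marker of the lists was at 0 in any library. In bulk tissue, fewer nuclei of a type and less signal per nucleus cannot be told apart.

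The sex labels of 4 of the 10 bulk libraries go against their Y-linked reads. CeA KO 2 and cortex KO 2 are labelled male and had 0 CPM at Y-linked promoters, while CeA WT 1 and cortex WT 1 are labelled female and had 41.7 and 96.1 CPM. Results that rest on bulk libraries are therefore also given without these 4, a choice made after seeing the data. Only 1 WT library then remains in each region, so these fits hold no spread between WT libraries and are no replicated check. All KO libraries are labelled male, so the sex term of the bulk fit rests on WT 1 against WT 2 alone. The KO minus WT values therefore lean on WT 2, and both WT 1 libraries go against their label. At Maff in the CeA, for example, the mean was 34.7 CPM in KO and 38.5 CPM in WT libraries. The fitted log2 fold change was nevertheless 0.09. The Erbb4 promoter had 39.1, 28.8 and 32.9 CPM in the CeA KO libraries, against 35.6 and 37.4 CPM in the CeA WT libraries. In the cortex it had 26.0, 36.6 and 41.1 CPM in KO libraries, against 33.3 and 45.8 CPM in WT libraries. Neither difference passed the test (log2 fold change -0.23 ± 0.25 in CeA and -0.32 ± 0.23 in cortex). Since Erbb4 was removed in SOM+ cells alone and the labels do not say which part of the gene was deleted, this window does not check the knockout.

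The members ranged widely in accessibility. Per kb of window, Jun had the highest mean level over the 18 libraries (146 CPM per kb, the 99.9th percentile of all windows), followed by Homer1 (116 CPM per kb), Egr1 (98.6 CPM per kb) and Klf6 (92.6 CPM per kb). Jun encodes the main partner of the Fos proteins, and Homer1 a scaffold of metabotropic glutamate receptors. At the low end stood Inhba (6.4 CPM per kb, the 42.9th percentile), which encodes the activin A subunit, and Ier3 (6.48 CPM per kb, the 43.1st percentile). Fos itself, at 37.3 CPM per kb, and Arc, at 43.7 CPM per kb, lay at the 83.0th and 87.5th percentiles. The less accessible windows averaged 15.2 CPM for Homer1, 25.2 CPM for Nr4a2 and 16.6 CPM for Nr4a3. All 38 genes passed the low-count filter in each of the 3 fits, so none is missing from the counts below.

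In SOM+ nuclei, no promoter of the group was called different between fear-conditioned and control mice in either region. Across the genome the same was true, with 0% of the 25157 windows called in the CeA, in the cortex, in the mean of both regions, or in the difference between regions (edgeR quasi-likelihood test, adjusted p under 0.05). The median log2 fold change of the 38 members was -0.05 in the CeA, -0.01 in the cortex and -0.01 in the mean of both, against medians of 0.01, 0.00 and 0.01 over all windows. The difference of the fear effect between the regions had a member median of -0.07. The member medians of the cortex and of the mean turned positive under total-count and cyclic loess scaling (0.01 to 0.02). The members' standard errors had a median of 0.22 in the CeA and 0.21 in the cortex, which sets the size of change that 2 libraries a group could show.

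Fos, the most used mark of neuronal activation, had 76.6 and 50.8 CPM in the CeA of fear-conditioned mice, against 79.8 and 83.0 CPM in the CeA of controls. Both fear libraries lay below both controls, by a log2 fold change of -0.32 ± 0.23 that did not pass the test (adjusted p = 1.00). In the cortex Fos had 129 and 130.5 CPM in fear libraries, against 137 and 133 CPM in controls (-0.05 ± 0.21). The 2 members with an unadjusted p under 0.05 in the CeA were Ier3 and Maff, as were 598 of all windows. Ier3, a stress-induced survival factor, had 9.67 and 16.4 CPM in fear libraries, against 8.61 and 6.47 CPM in controls (log2 fold change 0.74 ± 0.33). Maff, a small Maf transcription factor, had 29.2 and 27.5 CPM in fear libraries, against 33.8 and 45.8 CPM in controls (-0.45 ± 0.23). The fear and control libraries did not overlap at either promoter, but the edgeR adjusted p was 1.00 for both. In the CeA 5 members, Fos and Maff among them, had both fear libraries below both controls, and 1, Ier3, had both above. With 2 libraries a group, such separation can arise without a true difference, and its share over all windows is not given.

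The other classic activity genes gave no call in the CeA. Npas4, a neuron-specific activity factor, differed by -0.29 ± 0.22 on the log2 scale and Per1, a clock gene that CREB also drives, by -0.23 ± 0.22. Fosb differed by -0.18 ± 0.21, Arc, which shapes synaptic receptor trafficking, by -0.10 ± 0.22, and Homer1 by -0.08 ± 0.24. Nr4a1 (-0.07 ± 0.22), Junb (-0.06 ± 0.22), Dusp1 (-0.04 ± 0.23), Egr3 (-0.02 ± 0.21) and Egr1 (0.05 ± 0.24) were nearer to 0. In the cortex the 3 smallest p-values belonged to Fosb (-0.30 ± 0.20), Inhba (0.57 ± 0.39) and Klf6 (0.26 ± 0.21), a zinc-finger factor, and no member had an unadjusted p under 0.05, against 288 of all windows. There Arc differed by -0.17 ± 0.21, Nr4a1 by -0.16 ± 0.20, Npas4 by -0.11 ± 0.21, Dusp1 by -0.10 ± 0.22 and Homer1 by 0.10 ± 0.23. Junb (-0.09 ± 0.22), Egr1 (-0.07 ± 0.23), Egr3 (0.04 ± 0.21) and Per1 (-0.01 ± 0.21) completed the set.

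In the mean of both regions Maff (-0.33 ± 0.15) and Ier3 (0.43 ± 0.22) again had the smallest p-values, and Fosb followed at -0.24 ± 0.15. The fear effect in the CeA minus that in the cortex was 0.61 ± 0.43 for Ier3, -0.71 ± 0.56 for Inhba and -0.37 ± 0.30 for Klf6, and none was called. DESeq2 and limma also called 0 members in these comparisons. At an unadjusted p under 0.05 DESeq2 had Ier3 in the CeA and Maff in the mean, and limma had Maff and Nr4a3, another orphan nuclear receptor, in the mean.

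**Figure D1:**
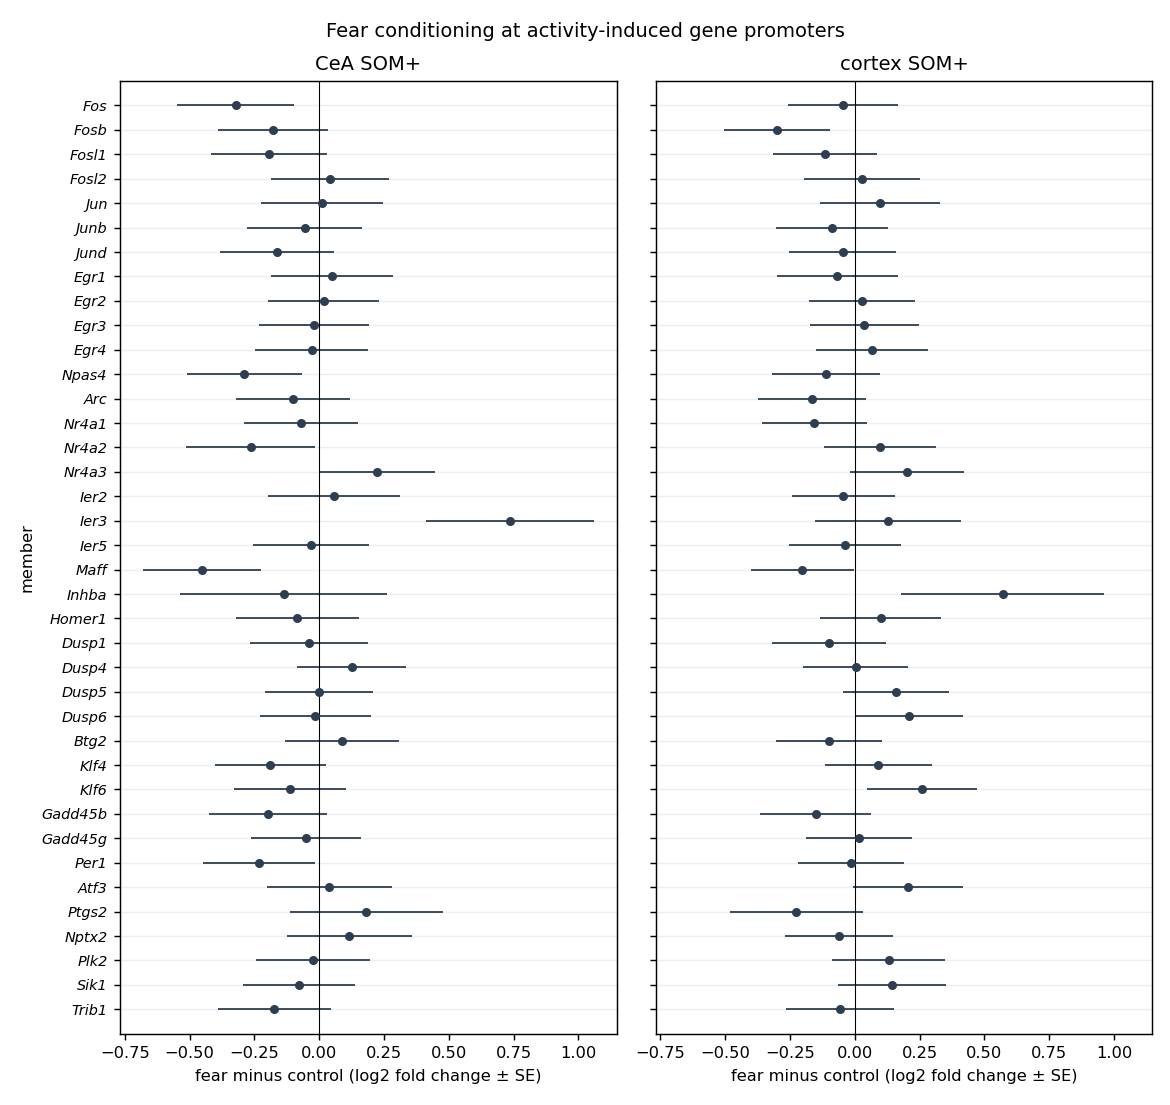
Log2 fold change of promoter reads, fear-conditioned minus control SOM+ nuclei, for the 38 genes in CeA (left) and cortex (right), with bars of ± 1 standard error from the edgeR fit of 8 libraries. Points lie between -0.45 (Maff) and 0.74 (Ier3) in the CeA and between -0.30 (Fosb) and 0.57 (Inhba) in the cortex, and none was called.

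Loss of Erbb4 in SOM+ cells likewise gave no call among the 38 promoters of bulk nuclei. In the CeA, the cortex, the mean of both and the difference between them, 0 members and 0% of the 25196 windows were called. No member had an unadjusted p under 0.05 in any of the 4 comparisons, against 745, 823, 872 and 590 of all windows. DESeq2 and limma also called 0 members, and at an unadjusted p under 0.05 limma had Gadd45g in the mean of the regions. At that level edgeR without the sex term had Dusp1 in the cortex, and Dusp1 and Gadd45g in the mean. With total-count scaling it had Gadd45g in the cortex and the mean, and Ier3 in the difference between regions. With replicate number as a block it had Nr4a2 in the cortex and the mean. The member medians were 0.09 in the CeA, -0.01 in the cortex and 0.05 in the mean, against 0.02, 0.02 and 0.01 over all windows, and the difference between regions had a member median of 0.13. Under cyclic loess scaling the member median was 0.09 in the cortex and -0.08 for the difference between regions. The labels give no share of SOM+ nuclei in these libraries. In the CeA, signal over background was 17.0 to 19.3 in KO and 10.7 to 16.3 in WT libraries. Summed GABAergic markers there were 480 to 592 CPM in KO and 402 to 436 CPM in WT, and somatostatin markers 138 to 163 and 171 to 173 CPM. In the cortex signal over background and the GABAergic sum overlapped between KO and WT libraries. The part of these differences in the knockout values was not tested.

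In the CeA the 3 smallest p-values belonged to Ier3, Gadd45g and Plk2. Ier3 had 8.75, 15.7 and 12.2 CPM in KO libraries, against 15.6 and 20.5 CPM in WT libraries, which overlap (-0.59 ± 0.32). Gadd45g, a growth-arrest and DNA demethylation factor, had 93.8, 74.1 and 83.1 CPM in KO libraries, against 69.7 and 67.2 CPM in WT libraries (0.33 ± 0.20). Plk2, a kinase that scales down synapses after strong activity, had 182, 142 and 141 CPM in KO libraries, against 117 and 123 CPM in WT libraries (0.36 ± 0.23). For both genes every KO library lay above both WT libraries, but the adjusted p was 0.999 for each, as for Ier3. Such separation was seen at 9 members, and 2 were separated the other way. With so few libraries, groups can separate without a true difference, and the share over all windows is not given.

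In the cortex the lowest p-values belonged to Atf3 (-0.41 ± 0.25), a stress-induced CREB relative, Ptgs2 (-0.36 ± 0.23), the inducible cyclooxygenase, and Gadd45g (0.30 ± 0.20), each with an adjusted p of 0.945. Gadd45g had 60.7, 64.3 and 59.7 CPM in cortex KO libraries, against 49.6 and 50.9 CPM in cortex WT libraries, so it was nominally higher in KO in both regions (0.31 ± 0.16 in the mean). The other 2 genes with the lowest p-values in the mean were Atf3 (-0.32 ± 0.20) and Gadd45b (0.25 ± 0.16). Between regions the knockout effect differed by -0.80 ± 0.40 for Ier3, 0.52 ± 0.28 for Plk2 and 0.44 ± 0.30 for Dusp6, again with no call.

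None of the named activity genes was called by genotype. In the CeA, Fos differed by -0.24 ± 0.20, Egr3 by 0.19 ± 0.19, Arc by 0.17 ± 0.24, Dusp1 by 0.16 ± 0.21 and Homer1 by 0.15 ± 0.22. Fosb (-0.13 ± 0.29), Npas4 (0.11 ± 0.31), Nr4a1 (0.09 ± 0.24), Egr1 (0.08 ± 0.22), Junb (-0.04 ± 0.21) and Per1 (0.03 ± 0.24) were within 1 standard error of 0. In the cortex the values were 0.38 ± 0.31 for Fosb, 0.33 ± 0.33 for Npas4, 0.31 ± 0.25 for Per1 and 0.30 ± 0.21 for Dusp1. There Fos (-0.11 ± 0.19), Egr1 (-0.11 ± 0.22), Homer1 (-0.03 ± 0.22), Nr4a1 (0.03 ± 0.24), Junb (0.01 ± 0.21), Egr3 (-0.01 ± 0.19) and Arc (0.00 ± 0.24) were closer to 0.

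A single library stood apart from the rest of the cortex KO group at several members. Cortex KO 3 had 133 CPM at Nr4a2, an orphan nuclear receptor, against 49.4 and 61.6 CPM in cortex KO 1 and 2, and the cortex WT libraries had 85.4 and 103 CPM. The same library was the highest of its group at Jun (503 CPM, against 279.7 and 337 CPM) and Klf6 (379 CPM, against 220.0 and 244 CPM), and the lowest at Npas4 (15.9 CPM, against 35.8 and 27.5 CPM) and Fosl1 (6.01 CPM, against 13.5 and 13.4 CPM). Its summed oligodendrocyte markers stood at 306 CPM, against 205 and 215 CPM in the other cortex KO libraries, and their part in these levels was not tested. The cortex WT libraries also differed in this sum, with 219 CPM in WT 1 and 287 CPM in WT 2. Over all windows of the fit, deviations of log2 CPM from the group mean in cortex WT 2 correlated at 0.498 with those in cortex KO 3. With cortex KO 1 and 2 the values were -0.408 and -0.220. Without cortex KO 3, Nr4a2 was lower in cortex KO than WT (-0.97 ± 0.20, adjusted p = 0.00349), with 985 windows called across the genome. Without the 4 libraries with mismatched sex labels, 0 members were called by genotype.

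**Figure D2:**
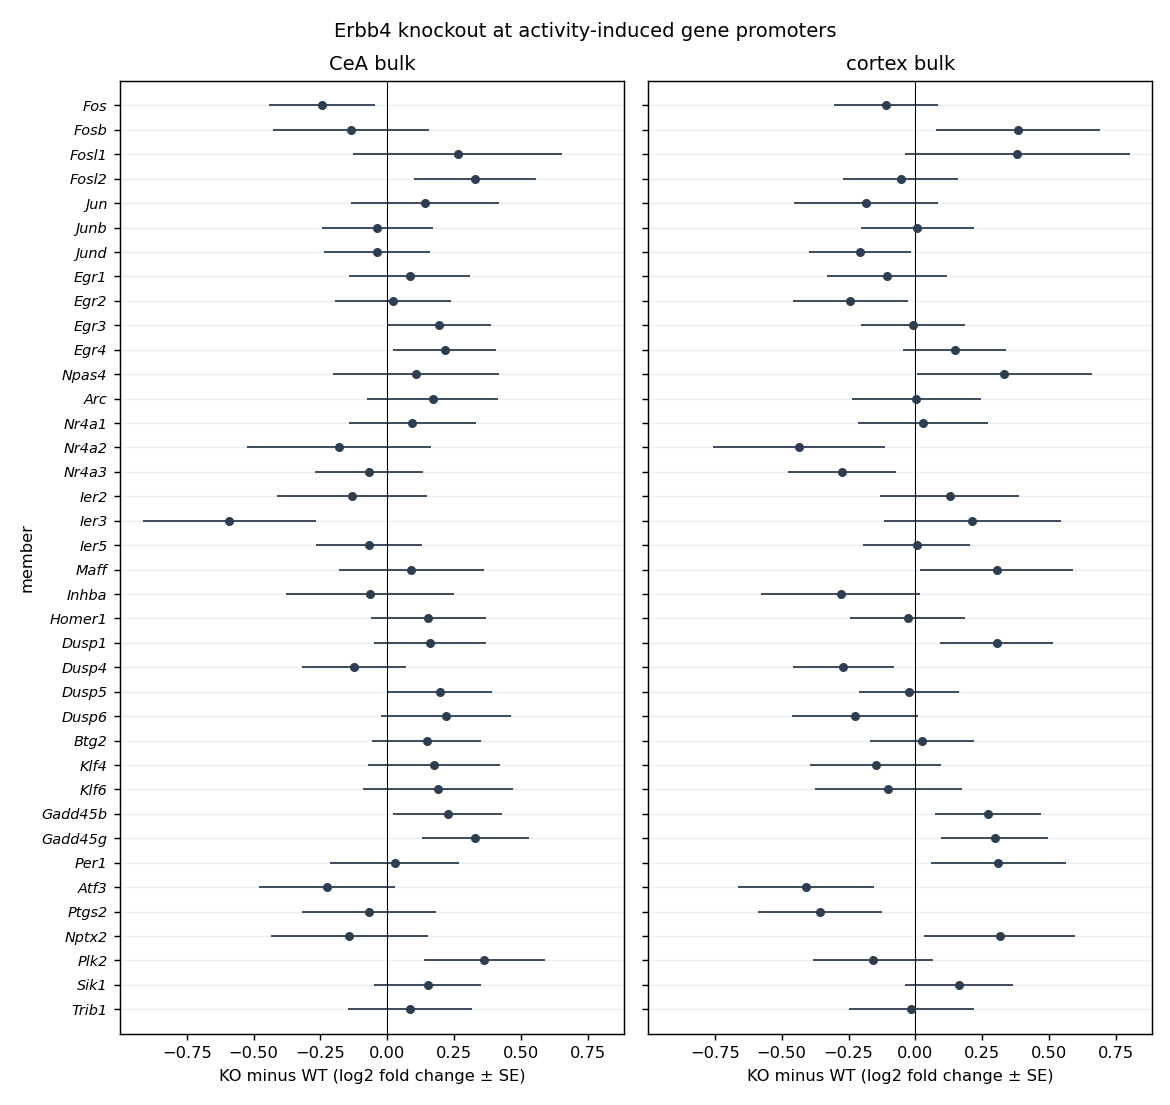
Log2 fold change of promoter reads, Erbb4 KO minus WT bulk nuclei, for the 38 genes in CeA (left) and cortex (right), with bars of ± 1 standard error from the edgeR fit of 10 libraries with labelled sex as a term. The largest distances from 0 are at Ier3 in the CeA (-0.59) and Nr4a2 in the cortex (-0.43), and none was called.

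Many members differed between the brain regions. In SOM+ nuclei, averaged over fear and control, 8 members were higher in the CeA than in the cortex and 15 were lower, of 38. Over all windows 21.1% were called higher and 27.1% lower. Among the genes with lower promoter signal in the CeA were Fos, Npas4, Ier2, Maff, Dusp1, Gadd45b and Arc, and among those with higher signal were Egr3, Egr4, Dusp5, Plk2 and Inhba. The split between directions moved with scaling, to 14 higher and 12 lower by total counts and 16 higher and 10 lower by limma with cyclic loess. Under all 4 scalings 8 members were called higher (Fosb, Egr3, Egr4, Inhba, Dusp5, Klf4, Klf6, Plk2) and 10 lower (Fos, Jund, Npas4, Ier2, Maff, Dusp1, Btg2, Gadd45b, Atf3, Nptx2). Scaling by total counts put the median of all windows at 0.26 here, against 0.04 with TMM, and at 0.13, against 0.03, for CeA against cortex in bulk nuclei. For SOM+ against bulk nuclei it put it at -0.31 in the cortex, against -0.07 with TMM, and at -0.22 in the CeA, against -0.06. For KO against WT in the cortex it stood at 0.13, against 0.02, and for the knockout difference between regions at -0.14, against 0.01.

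The widest gap was at Ier2 (chr8:87185752-87187751), a nuclear protein of the immediate early wave. It had 13.8, 18.3, 16.2 and 14.3 CPM in the 4 CeA SOM+ libraries, against 56.6, 67.1, 62.2 and 66.3 CPM in the 4 cortex SOM+ libraries. No CeA library came near a cortex one, and the log2 fold change was -1.98 ± 0.16 (adjusted p = 5.84e-32). Maff had 29.2, 27.5, 33.8 and 45.8 CPM in the CeA, against 67.8, 81.4, 92.7 and 80.1 CPM in the cortex (-1.22 ± 0.15, adjusted p = 3.32e-14). Fos had 76.6, 50.8, 79.8 and 83.0 CPM in the CeA, against 129, 130.5, 137 and 133 CPM in the cortex (-0.83 ± 0.16, adjusted p = 6.89e-07). The 4 cortex libraries were nearly equal at Fos, and the lowest CeA value was in fear library 2. Dusp1, a phosphatase that switches off MAP kinases, had 100.4, 79.3, 94.5 and 93.3 CPM in the CeA, against 158, 184, 171 and 199 CPM in the cortex (-0.91 ± 0.16). Gadd45b, a partner of Gadd45g in activity-linked DNA demethylation, averaged 71.5 ± 15.2 CPM in the CeA and 137 ± 31.3 CPM in the cortex (SD, n = 4 each; -0.90 ± 0.16).

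Several members went the other way. Egr3, a zinc-finger factor of the Egr family, had 117, 81.9, 102 and 104 CPM in the CeA, against 57.9, 55.7, 55.8 and 56.1 CPM in the cortex (0.88 ± 0.15, adjusted p = 4.2e-08). Dusp5, a nuclear phosphatase for ERK, had 70.5, 55.3, 64.0 and 64.4 CPM in the CeA, against 45.0, 28.1, 35.2 and 31.3 CPM in the cortex (0.90 ± 0.15). Neither set of libraries overlapped between the regions. Plk2 averaged 148 ± 22.1 CPM in the CeA and 82.1 ± 16.6 CPM in the cortex (0.89 ± 0.16), and Egr4 121 ± 18.7 and 87.3 ± 2.58 CPM (SD, n = 4 each; 0.51 ± 0.15). Inhba was 0.92 ± 0.28 higher in the CeA (adjusted p = 0.00359) but stood at low levels, 7.9 ± 1.24 CPM in the CeA and 4.38 ± 1.56 CPM in the cortex (SD, n = 4 each). Without cortex control 2 its adjusted p reached 0.0562, and without CeA control 1 that of Npas4 reached 0.0625 and that of Arc 0.0553. Of the 8 fits that left a library out, 7 called Nr4a2, 5 called Fosb, Fosl1, Klf4 and Klf6, and 3 called Trib1.

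Members of the same family were called in different directions. Of the Fos, Jun, Atf3 and Maff factors, Fos, Fosl1, Jund, Atf3 and Maff were lower in the CeA and Fosb was higher (0.37 ± 0.15), while Fosl2, Jun and Junb (-0.08 ± 0.15) gave no call. In the Egr family Egr3 and Egr4 were higher, and Egr1 (-0.12 ± 0.17) and Egr2 gave no call. Among the Dusp phosphatases Dusp1 was lower, Dusp5 higher, and Dusp4 and Dusp6 gave no call. Npas4 (-0.55 ± 0.15) and Arc (-0.52 ± 0.15) were lower, and Nr4a1 (-0.25 ± 0.15), Per1 (-0.26 ± 0.15) and Homer1 (-0.02 ± 0.17) gave no call. Under total-count and cyclic loess scaling Egr1, Junb, Fosl2 and Homer1 had a positive sign. Of the marker lists, 3 GABAergic markers were higher and 3 lower in the CeA, 1 somatostatin marker higher and 5 lower, and 0 glutamatergic markers higher and 4 lower, of 8 each. The 2 regions also differed in signal over background, and the part of either in these differences was not tested.

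In bulk nuclei the regional contrast was smaller. Of the 38 members, 6 were higher in the CeA and 7 lower, where 6.90% of all windows were called higher and 9.98% lower. Nr4a2 had 39.5, 25.5, 29.5, 25.9 and 39.1 CPM in the 5 CeA libraries, against 49.4, 61.6, 133, 85.4 and 103 CPM in the 5 cortex libraries (-1.44 ± 0.21, adjusted p = 7.23e-05). Ptgs2 had 41.2, 30.6, 40.9, 30.6 and 39.7 CPM in the CeA, against 53.6, 72.2, 95.3, 69.4 and 95.5 CPM in the cortex (-1.08 ± 0.15, adjusted p = 4.67e-05). The CeA and cortex libraries did not overlap at either gene. Egr2 (-0.59 ± 0.13), Trib1 (-0.62 ± 0.14), a pseudokinase that dampens MAP kinase signalling, and Ier2 (-0.70 ± 0.17) were also lower in the CeA, and Egr4 (0.52 ± 0.12) and Gadd45g (0.46 ± 0.12) higher. Only Nr4a2 and Ptgs2 of the 13 were still called without the 4 mismatched libraries, though all 13 kept their sign. Over the 10 fits that left a library out, the count ran from 2 without CeA WT 1 to 18 without cortex KO 1, and only Nr4a2 and Ptgs2 were called in all 10.

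The named genes gave fewer calls in bulk than in SOM+ nuclei. Junb (0.39 ± 0.13, adjusted p = 0.0414), Per1 (0.51 ± 0.15, adjusted p = 0.0245) and Egr3 (0.35 ± 0.12, adjusted p = 0.0472) were called higher in the CeA with overlapping libraries. Of the 10 fits that left a library out, 1 called Junb, 1 Egr3 and 5 Per1. Npas4 (0.54 ± 0.19), Fosb (0.43 ± 0.18), Egr1 (0.21 ± 0.14), Dusp1 (0.16 ± 0.13) and Arc (0.06 ± 0.15) gave no call, nor did Fos (-0.01 ± 0.12), Nr4a1 (-0.01 ± 0.15) and Homer1 (-0.04 ± 0.13). The 8 glutamatergic markers were mostly lower in CeA bulk nuclei (7 of 8 called) and the 8 GABAergic markers mostly higher (6 of 8 called), and their part in the members' differences was not tested.

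**Figure D3:**
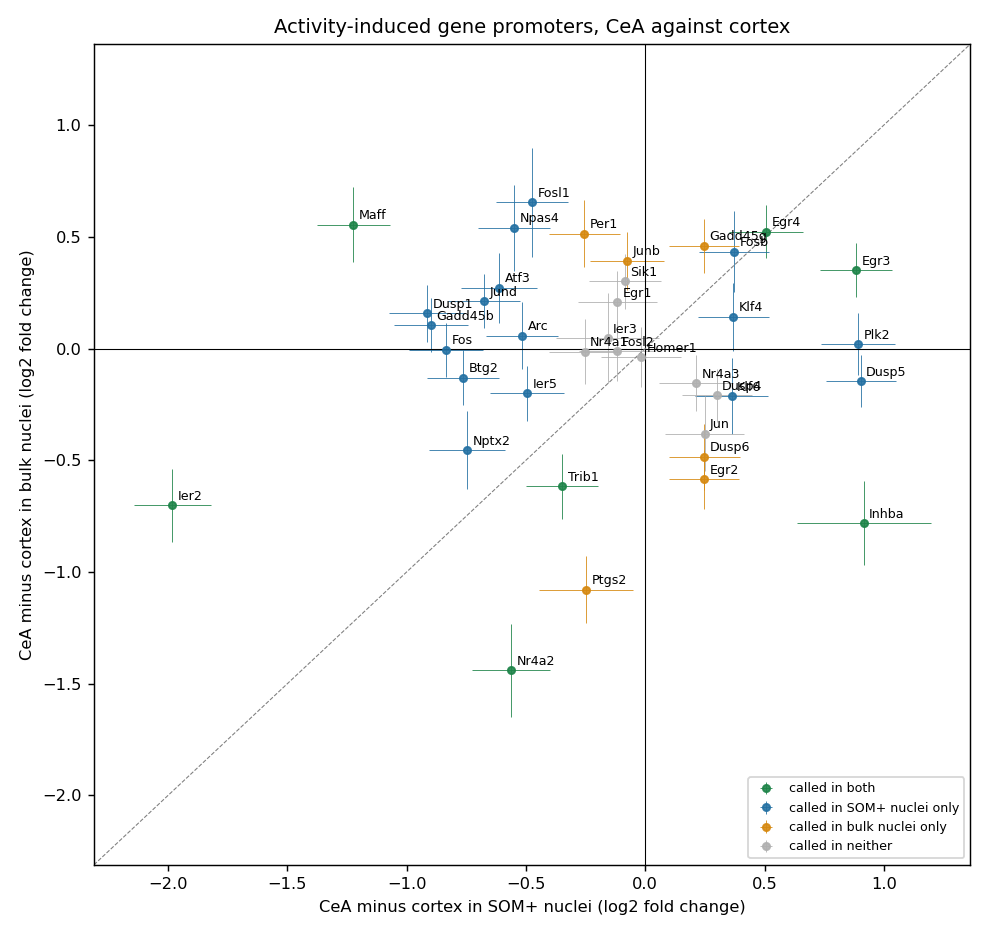
Log2 fold change CeA minus cortex in SOM+ nuclei (x axis, 8 libraries) and in bulk nuclei (y axis, 10 libraries) for the 38 genes, with bars of ± 1 standard error and colours for the sets in which each was called. Ier2 lies at -1.98 and -0.70, and Maff (-1.22 and 0.55) and Inhba (0.92 and -0.78) were called in opposite directions in the 2 sets.

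Set side by side, 2 members were called higher in the CeA in both sets (Egr3 and Egr4), 3 were lower in both (Nr4a2, Ier2 and Trib1), and Maff and Inhba were called in opposite directions. A further 16 were called in SOM+ nuclei alone, 6 in bulk nuclei alone and 9 in neither. A call in one set and not in the other is no test of their difference, which is given below for the SOM+ control and bulk WT libraries.

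The largest differences of all lay between SOM+ and bulk nuclei of the cortex. Comparing SOM+ control with bulk WT libraries, 17 members were higher in SOM+ nuclei and 12 were lower, leaving 9 without a call. Of all windows 62.1% were called, 31.5% higher and 30.6% lower, against 76.3% of the members. The genes with more accessible promoters in SOM+ nuclei included Npas4, Fosl1, Dusp1, Maff, Gadd45b and Fos, and those with less accessible ones included Inhba, Ptgs2, Klf6, Dusp6, Nr4a2 and Egr2. The median member stood at 0.40, against -0.07 over all windows, but at 0.16, against -0.31, under total counts and at -0.02, against 0.06, under cyclic loess, so its sign turned with the scaling. The sorting marker, the mouse line and the processing of the nuclei differ together between these sets, and their parts cannot be told apart.

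Dusp1 (chr17:26644418-26646417) had 171 and 199 CPM in SOM+ control libraries, against 41.8 and 45.0 CPM in bulk WT libraries (2.09 ± 0.20, adjusted p = 6.52e-11). Npas4 (chr19:4988972-4990971) had 101 and 112 CPM in SOM+ libraries, against 23.1 and 18.8 CPM in bulk libraries (2.34 ± 0.25, adjusted p = 3.5e-10). Both promoters thus held several times more reads in each SOM+ library than in either bulk one. Fosl1, an AP-1 factor of the Fos family, had 47.2 and 50.6 CPM, against 12.4 and 6.97 CPM in bulk (2.31 ± 0.29). Maff had 92.7 and 80.1 CPM, against 30.2 and 18.8 CPM in bulk (1.83 ± 0.23), and Gadd45b 121 and 169 CPM, against 44.3 and 46.5 CPM in bulk (1.65 ± 0.21). Each of these 5 was called in all 18 fits that left a library out, and none of their SOM+ libraries overlapped a bulk one.

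On the lower side, Ptgs2 (chr1:151946161-151948160) had 21.2 and 12.2 CPM in SOM+ control libraries, against 69.4 and 95.5 CPM in bulk WT libraries (-2.32 ± 0.26, adjusted p = 1.13e-09). Inhba (chr13:16105308-16107307) had 4.95 and 2.12 CPM in SOM+ libraries, against 21.9 and 24.7 CPM in bulk libraries (-2.76 ± 0.33, adjusted p = 4.98e-09). These were the 2 largest negative fold changes among the members, and no SOM+ library overlapped a bulk one at either. Klf6 had 82.6 and 61.6 CPM, against 248 and 314 CPM in bulk (-1.97 ± 0.24), Dusp6, the cytoplasmic ERK phosphatase, 79.7 and 51.8 CPM, against 181 and 243 CPM in bulk (-1.70 ± 0.22), and Egr2 53.1 and 25.5 CPM, against 102 and 114 CPM in bulk (-1.52 ± 0.21). All 5 were called in each of the 18 fits that left a library out.

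By role, of the Fos, Jun, Atf3 and Maff factors, Fos (1.34 ± 0.19), Fosb (0.97 ± 0.25), Fosl1, Fosl2, Junb (0.96 ± 0.20), Jund and Maff were called higher, Jun lower (-0.80 ± 0.23), and Atf3 gave no call. Of the Egr family Egr1 (0.96 ± 0.21) and Egr4 were higher, Egr2 was lower, and Egr3 (0.05 ± 0.19) gave no call. Nr4a2 was lower (-1.65 ± 0.28), while Nr4a1 (0.36 ± 0.21) and Nr4a3 gave no call. Among the brakes on signalling, Dusp1 and Sik1 were higher, and Dusp4, Dusp5, Dusp6, Plk2 and Trib1 were lower. Of the synaptic and secreted products, Inhba and Ptgs2 were lower, and Arc (0.24 ± 0.21), Homer1 (0.36 ± 0.20) and Nptx2 gave no call. The signs of Egr3, Nr4a1, Arc and Nptx2 turned under cyclic loess scaling. Per1 was higher (0.99 ± 0.22). Without the 4 mismatched libraries, which left 1 bulk WT library in each region, all 29 kept their sign. Under all 4 scalings 14 were higher and 12 lower. Of 8 markers in each list, the GABAergic ones gave 8 calls for SOM+ nuclei above bulk and 0 below, and 4 somatostatin markers higher and 2 lower. On the other side stood 0 higher and 7 lower for glutamatergic, 1 and 5 for astrocyte and 0 and 6 for oligodendrocyte markers, and their part in the members' differences was not tested.

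The short cAMP core TGACG did not separate the directions. Of the 14 members called higher under all scalings 10 had a promoter sequence, and 6 of those held the core (Dusp1, Fos, Junb, Maff, Npas4 and Per1). Of the 12 called lower 10 had a sequence, and 6 held it (Dusp5, Egr2, Klf4, Nr4a2, Plk2 and Ptgs2). The full element in the stretches of Dusp1 and Maff above is also in that of Plk2, which went the other way. The CArG box was in 0 of the 10 higher and 2 of the 10 lower genes, Dusp5 and Egr2. The median CpG count was 21 among the higher and 25.5 among the lower genes.

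**Figure D4:**
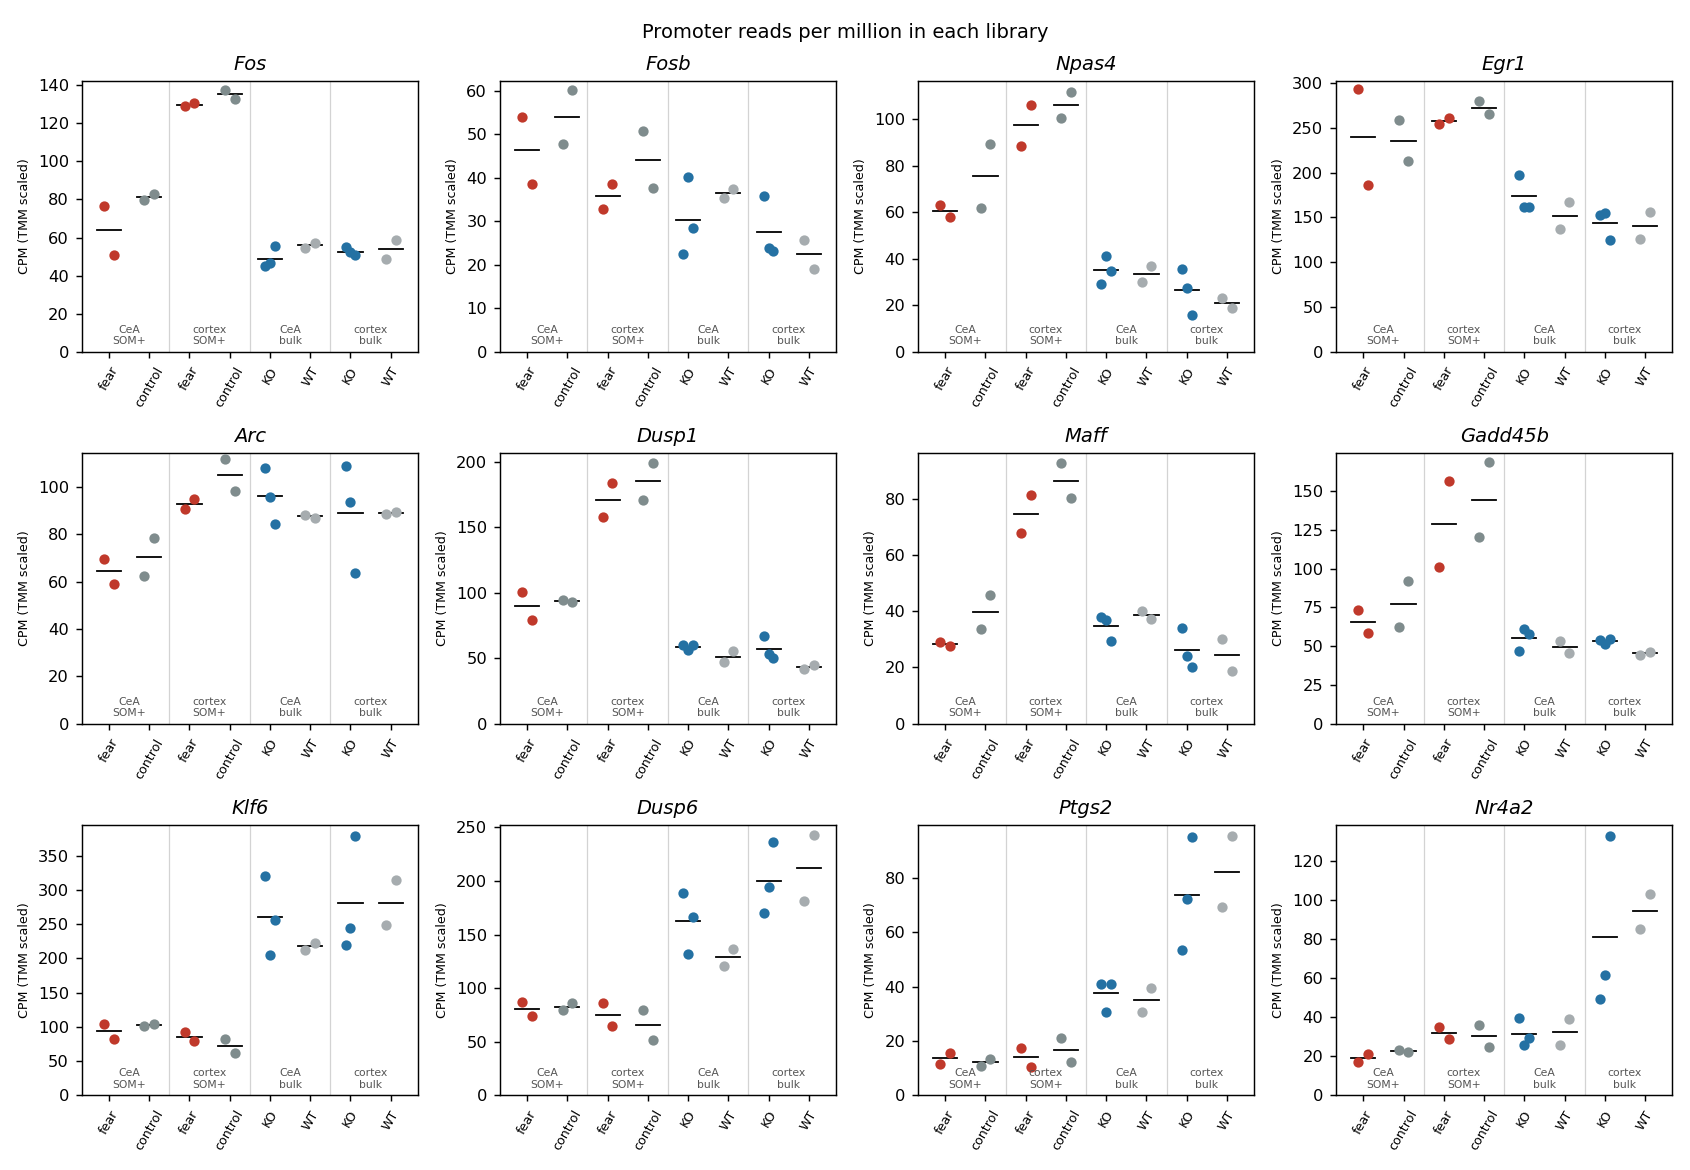
Promoter level (y axis, TMM-scaled CPM) of 12 genes in each of the 18 libraries, with points for libraries and lines for group means, fear left of control and KO left of WT within each region and set. Dusp1 reached 171 and 199 CPM in cortex SOM+ control libraries, against 41.8 and 45.0 CPM in cortex bulk WT, while Klf6 and Ptgs2 were lower in SOM+ than in bulk libraries of both regions.

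Between SOM+ control and bulk WT nuclei of the CeA the differences were smaller. There 11 members were higher in SOM+ nuclei and 5 lower, where 13.7% of all windows were called higher and 9.58% lower. Fosl2, an AP-1 factor of the Fos family, had 167 and 133 CPM in SOM+ control libraries, against 58.4 and 49.0 CPM in bulk WT libraries (1.45 ± 0.21, adjusted p = 6.78e-06). Ptgs2 had 10.8 and 13.5 CPM in SOM+ libraries, against 30.6 and 39.7 CPM in bulk libraries (-1.56 ± 0.29, adjusted p = 0.000132). No SOM+ library overlapped a bulk one at either promoter. Ier3 had 8.61 and 6.47 CPM, against 15.6 and 20.5 CPM in bulk (-1.21 ± 0.34, adjusted p = 0.00769). These 3 were the members still called without the 4 mismatched libraries, and all 16 kept their sign there. The count was 4 without CeA WT 1 and 19 without cortex KO 3. It was 8 higher and 8 lower by total counts or 6 higher and 8 lower by cyclic loess. Calls held under all 4 scalings for 6 higher and 5 lower members. Of 8 markers each, 4 GABAergic were higher and 0 lower, 0 somatostatin higher and 2 lower, and 0 glutamatergic, astrocyte and oligodendrocyte higher with 4, 5 and 4 lower, and their part was not tested.

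Npas4 (1.17 ± 0.25), Fosl1 (1.17 ± 0.29), Dusp1 (0.88 ± 0.20) and Egr3 (0.68 ± 0.19) were also called higher in CeA SOM+ nuclei, and Klf6 (-1.08 ± 0.23), Klf4 (-0.66 ± 0.22) and Dusp6 (-0.64 ± 0.22) lower. Egr1 (0.64 ± 0.21) was called higher too, and Fos (0.54 ± 0.20, edgeR adjusted p = 0.0387) and Homer1 (0.53 ± 0.20, adjusted p = 0.0475) were called nearer the threshold. Of the 18 fits that left a library out, 14 called Egr1, 14 Fos and 4 Homer1. The calls of Egr3 and Fos did not hold under all 4 scalings. Fosb (0.56 ± 0.25), Junb (0.41 ± 0.20), Arc (-0.32 ± 0.21), Per1 (0.14 ± 0.22) and Nr4a1 (0.08 ± 0.22) gave no call, and the signs of Per1 and Nr4a1 turned under total-count scaling.

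**Figure D5:**
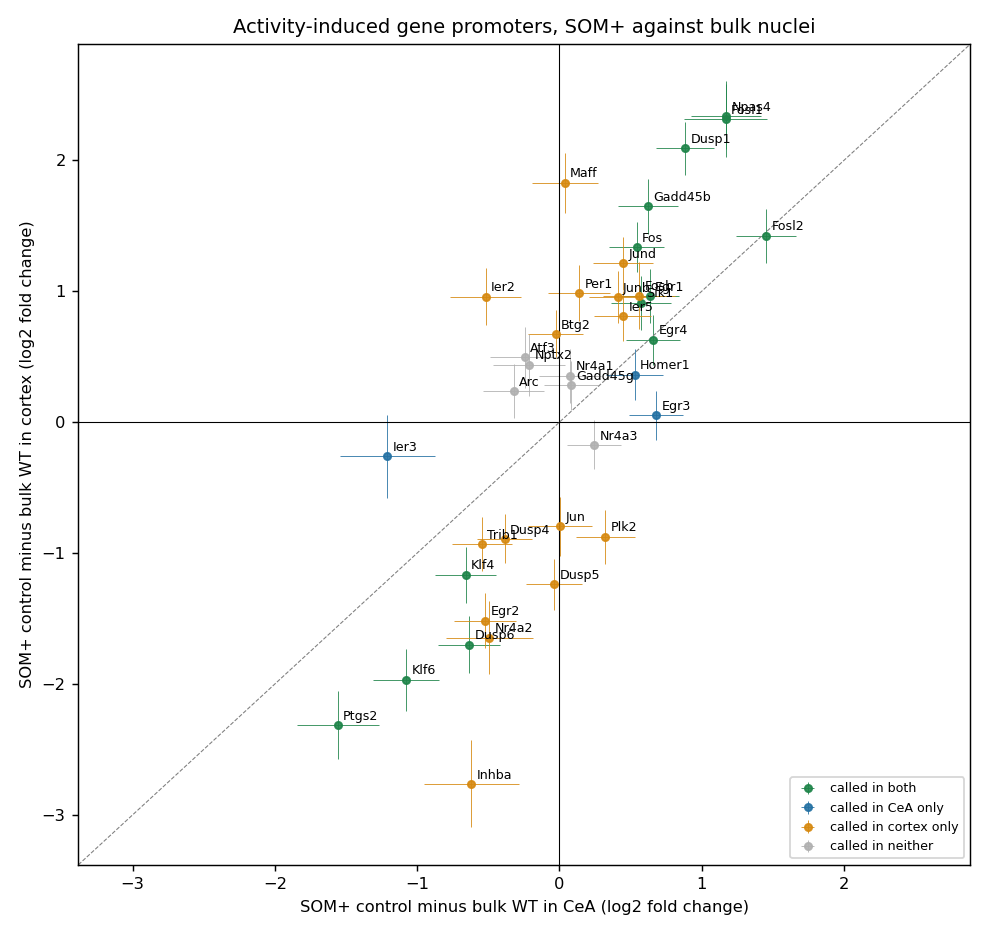
Log2 fold change of SOM+ control minus bulk WT nuclei in the CeA (x axis) and in the cortex (y axis) for the 38 genes, with bars of ± 1 standard error from the edgeR fit of 18 libraries and a dashed line of equal change. Maff (0.04 and 1.83), Dusp1 (0.88 and 2.09) and Npas4 (1.17 and 2.34) lie above the line, Inhba (-0.62 and -2.76) and Dusp5 (-0.04 and -1.24) below it, and Fosl2 (1.45 and 1.43) near it.

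The interaction tested whether the gap between SOM+ and bulk nuclei differed by region. For 16 members it did, 7 with a more positive gap in the CeA and 9 with a more negative one, where 9.46% and 15.2% of all windows were called in these directions. The gap was 0.04 ± 0.23 in the CeA and 1.83 ± 0.23 in the cortex for Maff, a difference of -1.79 ± 0.33 (adjusted p = 0.000143). For Inhba it was -0.62 ± 0.34 and -2.76 ± 0.33, a difference of 2.14 ± 0.47 (adjusted p = 0.000919). Ier2 (-1.48 ± 0.33), Dusp1 (-1.21 ± 0.28), Gadd45b (-1.03 ± 0.30) and Npas4 (-1.16 ± 0.34) had larger positive gaps in the cortex, with a gap of -0.52 ± 0.25 for Ier2 in the CeA. Dusp5 (1.20 ± 0.28), Plk2 (1.20 ± 0.29), Dusp6 (1.06 ± 0.30) and Egr2 (0.99 ± 0.30) had more negative gaps in the cortex. Under total-count scaling the split was 9 and 6, and under cyclic loess 7 and 6. Calls held under all 4 scalings for 6 and 5 members, and not for Npas4.

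Without the 4 mismatched libraries 7 of the 16 were called, each in the same direction: Fosl1, Npas4, Maff, Inhba, Dusp1, Dusp5 and Plk2. Without cortex control 2 the count was 8, and without cortex KO 1 or cortex KO 3 it was 18. Of the other named genes, Fos (-0.79 ± 0.27) and Per1 (-0.85 ± 0.31) were called, and Egr3 (0.63 ± 0.27), Arc (-0.56 ± 0.30), Junb (-0.55 ± 0.28), Fosb (-0.41 ± 0.36), Egr1 (-0.33 ± 0.29), Nr4a1 (-0.28 ± 0.30) and Homer1 (0.16 ± 0.28) were not. Signal over background was 59.6 to 73.6 in cortex SOM+ control and 9.90 to 13.4 in cortex bulk WT libraries, but 26.8 to 35.0 in CeA SOM+ control and 10.7 to 16.3 in CeA bulk WT libraries, and its part was not tested.

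Genes upstream and downstream of the relay were counted in the same fits. None of 32 upstream regulators (CREB and SRF factors, coactivators, kinases and calcium channels) and none of 28 late-response genes was called by fear conditioning or by knockout in any of the 8 comparisons. Crem is in both lists. In CeA against cortex SOM+ nuclei, 5 upstream regulators were higher and 14 lower, where 21.1% of all windows were called higher and 27.1% lower. Among the lower ones was the kinase Rps6ka1, which averaged 32.8 ± 8.25 CPM in the CeA and 105 ± 2.98 CPM in the cortex (SD, n = 4 each; -1.64 ± 0.16). In cortex SOM+ against bulk nuclei 22 upstream regulators were higher and 5 lower, where 31.5% of all windows were called higher and 30.6% lower. Camkk2, a calcium-activated kinase, averaged 131 ± 10.2 CPM in SOM+ control and 29.7 ± 1.70 CPM in bulk WT libraries (SD, n = 2 each; 2.13 ± 0.21).

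The late-response genes were counted the same way. In cortex SOM+ against bulk nuclei 9 were higher and 15 lower, beside 31.5% and 30.6% of all windows. The lists were not tested against each other. Bdnf, the growth factor that activity induces in excitatory neurons, averaged 32.1 ± 15.8 CPM in SOM+ control and 163 ± 29.9 CPM in bulk WT libraries (SD, n = 2 each; -2.38 ± 0.29). In bulk nuclei 1 late-response gene was higher in the CeA than in the cortex and 7 were lower, with Bdnf at 42.6 ± 14.3 CPM in the CeA and 165 ± 45.6 CPM in the cortex (SD, n = 5 each; -1.94 ± 0.19). In that comparison 9 upstream regulators were higher and 1 lower, where 6.90% of all windows were called higher and 9.98% lower. In CeA SOM+ against cortex SOM+ nuclei 8 late-response genes were higher and 12 lower, beside 21.1% and 27.1% of all windows. In CeA SOM+ against bulk nuclei the counts were 4 and 4, and 12 and 0 for upstream regulators, beside 13.7% and 9.58% of all windows.

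The spread between libraries of a group was estimated by edgeR with information shared over windows, so a promoter's value is not its own spread alone. The median biological coefficient of variation of the 38 was 0.137 in SOM+ libraries and 0.149 in bulk libraries, against 0.148 and 0.179 over all windows. The highest estimates were for Inhba in SOM+ libraries (0.218) and Fosl1 in bulk libraries (0.237), both at low levels. Egr2 was given 0.133 in SOM+ libraries, although its 2 cortex control libraries differed 2.08-fold. Within a group, the highest library exceeded the lowest by over 1.5-fold at 14 members in cortex KO, the most of any group, and at 1 member, Sik1, in CeA SOM+ control. In CeA SOM+ fear libraries it did so at 7 members.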

How the data were processed

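ATAC-seq was measured in 18 libraries in 8 groups. The authors deposited raw read counts per promoter window on mm9, and used, per the submitters' processing notes, Bowtie2, MACS2, Picard 1.88, Trimmomatic 0.32 and bcl2fastq 2.16.0.10, with no role or order given. Of 26728 entries, 663 repeats were dropped. Totals ran between 2648959 and 14668694 reads per library, and their number limits precision at low windows.

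Windows were filtered with filterByExpr (minimum count 10, minimum total 15), scaled by TMM and tested by the quasi-likelihood method of edgeR 4.0.16 under R 4.3.3, adjusting p-values over all windows (Benjamini-Hochberg) and calling at 0.05. SOM+ libraries (8), bulk libraries (10, with labelled sex as a term) and all 18 (with that term) were fitted for 13 comparisons. The standard error is the log2 fold change over the root of F. The code was tested on simulated data. Alternatives were DESeq2 1.42.0, other scalings, no filter, other windows, covariates and left-out libraries. Limma 3.58.1 was planned on log2 CPM with a trend, which made too many false calls on simulated data, and was run as voom with cyclic loess instead.

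Members and lists were chosen with earlier results of these data known. The text names 11 members throughout, and in each comparison up to 5 called members per direction with the smallest p and no overlap between libraries, or the 3 with the smallest p where fewer than 3 were called. Nr4a2, Jun, Klf6, Npas4 and Fosl1 in cortex KO 3 were chosen after their values were seen. Marker lists for microglia and vascular cells were counted too, with at most 3 of 8 called in any direction.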

Additional observations from a re-analysis of the deposited data

Results flagged for a closer look

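The gap between SOM+ control and bulk WT nuclei differed between CeA and cortex for 16 members by a test of the difference itself (edgeR, adjusted p under 0.05). Of all windows 9.46% were called with a more positive gap in the CeA and 15.2% with a more negative one. On the log2 scale, as the CeA gap minus the cortex gap, it was more negative for Maff (-1.79), Ier2 (-1.48), Dusp1 (-1.21), Npas4 (-1.16), Fosl1 (-1.15), Gadd45b (-1.03), Per1 (-0.85), Fos (-0.79) and Btg2 (-0.70). It was more positive for Inhba (2.14), Dusp5 (1.20), Plk2 (1.20), Nr4a2 (1.16), Dusp6 (1.06), Egr2 (0.99) and Klf6 (0.89). The calls of Fosl1, Npas4, Btg2, Klf6 and Per1 did not hold under all 4 scalings. Btg2 (adjusted p = 0.0483) and Klf6 (adjusted p = 0.0421) lay nearest the edgeR threshold. Maff, Inhba, Ier2, Dusp5, Dusp1 and Plk2 were called in each of the 18 fits that left a library out.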

How the results depend on the processing

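Fear conditioning and knockout gave 0 called members under every other scaling, filter, test, window and covariate tried. With a library left out, the count was 0 for fear, 0 to 1 for KO in the cortex, 18 to 25 for CeA against cortex in SOM+ nuclei, 2 to 18 in bulk nuclei, 4 to 19 for SOM+ against bulk in the CeA, 27 to 30 in the cortex and 8 to 18 for the interaction. Without the 4 libraries whose sex label goes against their Y-linked reads, chosen after seeing the data, the counts were 2 for CeA against cortex in bulk nuclei, 3 for SOM+ against bulk in the CeA and 7 for the interaction. Fewer libraries entered these fits, and without the 4 mismatched ones each region kept only 1 WT library. With the replicate block the counts were 24, 13, 17, 29 and 17 in the same order, and 0 for fear and knockout. The numbers were not taken to pair the libraries, but a pairing by animal was not settled. Deviations of log2 CPM from the group mean were correlated between CeA and cortex libraries of the same group and number. The values were 0.13 (SOM+ control), 0.04 (SOM+ fear), 0.38 (bulk WT) and -0.20, 0.26 and 0.02 (KO 1, 2 and 3). In groups of 2 libraries the deviations mirror each other. The mismatched sex labels fell on the same numbers in both regions (KO 2 and WT 1). In SOM+ libraries the number is also the labelled sex. Of 201 single-gene results, 4 values reversed. For CeA against cortex in SOM+ nuclei, Egr1 was 0.20 and Homer1 0.30 under cyclic loess, and Homer1 was 0.60 at its lower window. At that window Homer1 was -0.93 for SOM+ against bulk in the cortex. The cause was not tested. Over the settings that did not leave out a single library, the one without the 4 mismatched libraries included, 1423 gene values kept direction and call, 42 lost the call and 11 gained it. With a library left out these were 2203, 109 and 4.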
